A study of Homo sapiens with 3 samples.

Results

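The genes described here are 6 that encode secreted proteins with antimicrobial activity or close relatives of such proteins: LYZ, PLA2G2A, BPIFB2, ANG, RNASE4 and LEAP2. They were chosen by symbol from a table of 21572 genes, and LYZ, PLA2G2A and BPIFB2 were picked because their levels were far lower in the knockdown libraries. Their differences are therefore a description and no test. Levels are in FPKM, fragments scaled to transcript length and to library size; the table names no unit, and FPKM was inferred from its values and from the use of Cufflinks. The mean over the libraries reached 1 FPKM for all 6 and for 11069 genes of the table, here called the compared genes.

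RNA was sequenced from 3 cultures of Hep-G2, an established human hepatoma line, each at passage 21. One culture carried the hairpin TRCN0000246247 (sh#7) and another TRCN0000255402 (sh#2), both aimed at FTO, the gene of an enzyme that takes the methyl group off N6-methyladenosine in RNA. The control culture carried SHC002, a scrambled hairpin. By the design text, sh#7 lowers FTO more efficiently and sh#2 less efficiently. Each group held 1 library, so no difference below can be set against a spread between cultures, and an effect of FTO cannot be told apart from an effect of a culture. Whether a line was a clone or a pool of cells was not given in the sources used here.

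Animals defend body surfaces and blood with secreted proteins that attack the envelope of microbes. Lysozyme cuts the peptidoglycan of the bacterial wall, and the group IIA phospholipase hydrolyses the membrane phospholipids that the wall covers. Several secreted ribonucleases and small peptides also kill microbes in vitro, although their main roles may lie elsewhere, as for angiogenin in vessel growth and LEAP2 at the ghrelin receptor. Hepatocytes release many such proteins into plasma.

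FTO itself was at 2.55 FPKM in sh#7, 5.29 FPKM in sh#2 and 9.02 FPKM in the control. Depth, estimated from low values inside a fixed window, ranged over 41.7 to 43.1 M fragments. The window bounds these estimates, so their closeness is no independent check that the depths were alike. On the log2(FPKM + 1) scale, the compared genes had a median difference from the control of 0.16 in sh#7 and 0.10 in sh#2, and one of 0.05 between sh#7 and sh#2. After median-of-ratios scaling these medians were at 0.00. Relative to the median of all compared genes, the difference from the control in sh#7 was -3.59 for LYZ, -3.32 for PLA2G2A, -5.17 for BPIFB2 and -1.62 for LEAP2. All 8 hepatocyte markers checked were among the compared genes, with ALB at 1947 FPKM in sh#7, 5501 FPKM in sh#2 and 5468 FPKM in the control.

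All 6 genes had their lowest level in sh#7, and 5 of them had their highest level in the control by more than their counting error. In sh#7 against control, 5 of 6 were lower by at least 2-fold on the log2(FPKM + 1) scale, where 2.48% of all compared genes were that much lower. In sh#2 against control, 3 of 6 were, against a background of 0.723%. In sh#7 against sh#2, 4 of 6 were, against 1.52%. None of the 6 was higher by 2-fold in any comparison, where 2.35%, 0.506% and 1.45% of the compared genes were. Nothing is read from these counts, since the genes were chosen on these contrasts. Both knockdown libraries were set against the same control library.

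The median difference of the 6 genes was -2.31 in sh#7 against control, or -2.47 relative to the median of all compared genes. It was -0.93 in sh#2 against control (-1.03 relative) and -1.23 in sh#7 against sh#2 (-1.28 relative). The 6 genes together summed to 506 FPKM in sh#7, 1695 FPKM in sh#2 and 4167 FPKM in the control. Those sums made up 0.0954%, 0.305% and 0.738% of all FPKM in the same libraries. LYZ alone held 58.7% of the sum in sh#7, 78.0% in sh#2 and 77.2% in the control. In RNA from a whole culture, fewer cells that express a gene and less RNA per cell cannot be told apart.

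**Figure D1:**
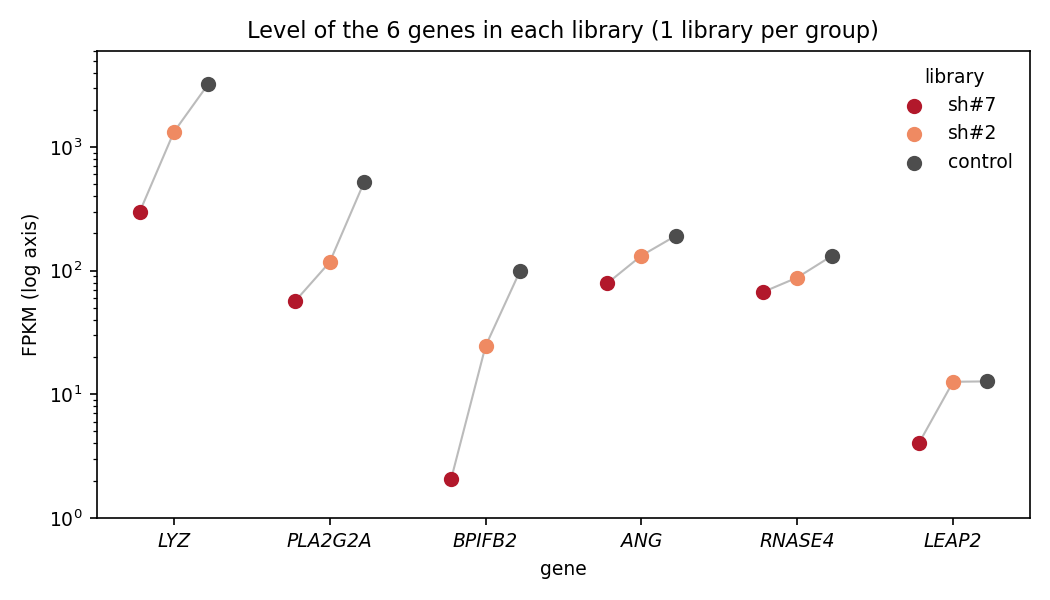
FPKM of the 6 genes on a log axis; each point is 1 library (sh#7, sh#2, control, left to right for each gene), and there are no error bars because each group held 1 library. LYZ covers 297 to 3216 FPKM and BPIFB2 2.08 to 98.5 FPKM, while LEAP2 is nearly level between sh#2 (12.6 FPKM) and the control (12.7 FPKM).

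LYZ, on chromosome 12, encodes lysozyme C, a product of phagocytes and glandular epithelia. It was at 297 FPKM in sh#7, 1321 FPKM in sh#2 and 3216 FPKM in the control. By level it was the 269th highest gene of sh#7, the 52nd highest of sh#2 and the 15th highest of the control. The level in sh#7 was 9.24% of the control (95% interval 9.01 to 9.47) and that in sh#2 was 41.1% (40.5 to 41.6). These intervals, here and below, are exact and cover counting error only, so they say nothing of how cultures differ. On the log2(FPKM + 1) scale LYZ differed by -3.43 (sh#7 against control), -1.28 (sh#2 against control) and -2.15 (sh#7 against sh#2). Among the 11069 compared genes, 16 were further below the control in sh#7 than LYZ.

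LYZ is also a marker of myeloid and Paneth cells, so markers of those cells were read beside it. Of 14 myeloid markers, PTPRC, FCGR3A and ELANE were listed at 0 in all 3 libraries, and 12 of the 14 were under a mean of 1 FPKM. The compared ones were CD68, a lysosomal protein, at 23.3 FPKM in sh#7, 30.8 FPKM in sh#2 and 39.3 FPKM in the control, and AIF1, an actin-binding protein, at 0.607, 0.875 and 2.72 FPKM in the same libraries. The 14 summed to 25.0 FPKM in sh#7, 32.5 FPKM in sh#2 and 43.2 FPKM in the control. Of 10 Paneth and intestinal secretory markers, 6 were listed at 0 throughout, DEFA5 and DEFA6 among them, and the 10 summed to 0.570, 1.26 and 2.06 FPKM in sh#7, sh#2 and control. Apart from CD68 and AIF1, no marker of these lists was above 1.21 FPKM in any library. The part of either cell type in the level of LYZ was not tested. GENCODE 29 has an antisense gene, AC020656.1, across the 3′ end of LYZ, and reads of both cannot be told apart unless strand was used, which the sources do not state.

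All other genes listed with LYZ, relatives or not, were near 0. Of 14 other genes for lysozymes, chitinases and peptidoglycan recognition proteins, 8 were listed at 0 in all libraries and the highest value of any was 0.414 FPKM. Neither neighbour of LYZ on chromosome 12 was past 2-fold. CPSF6, a subunit of an mRNA cleavage factor, was at 25.2 FPKM in sh#7, 23.2 FPKM in sh#2 and 18.8 FPKM in the control. YEATS4, a histone reader, was at 26.1, 31.1 and 26.9 FPKM.

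PLA2G2A, on chromosome 1, encodes the group IIA secreted phospholipase A2, which hydrolyses phospholipids of Gram-positive bacteria and is released in inflammation. It was at 56.9 FPKM in sh#7, 117 FPKM in sh#2 and 517 FPKM in the control. Both knockdown libraries were far below the control, and they were closer to each other than either was to it on the log2 scale. Relative to the control the level was 11.0% in sh#7 (95% interval 10.4 to 11.6), while sh#2 was at 22.6% (21.7 to 23.5). The differences from the control were -3.16 and -2.14. Between sh#7 and sh#2 the difference was -1.02, close to the 2-fold line. In sh#2, 9 of the 11069 compared genes were further below the control than PLA2G2A.

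Promoter windows are printed so that the letters before the starts of genes that were low together can be set side by side. The table of RefSeq windows used here, on GRCh38.p14, matched 5 of the 6 genes with 8 distinct windows; a window of LYZ was not used here. Each holds the 250 bases before a start, 5′ to 3′. Capitals mark every match on either strand to a motif searched. The motifs were the TATA box TATAAA, the HNF1 motif GTTAAT, the forkhead motif TGTTTAC, the HNF4 motif CAAAGTC, the CCAAT box with the letters CCAAT, and the GC box with the letters GGGCGG. The window of PLA2G2A is the first of 3 in RefSeq and covers chr1:19979660-19979909 on the minus strand.

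PLA2G2A: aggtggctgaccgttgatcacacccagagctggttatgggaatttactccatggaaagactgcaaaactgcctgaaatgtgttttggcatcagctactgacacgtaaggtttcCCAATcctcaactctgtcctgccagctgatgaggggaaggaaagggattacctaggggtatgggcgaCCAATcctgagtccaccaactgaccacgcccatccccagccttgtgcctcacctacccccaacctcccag

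CCAAT stood 137 and 70 bases before the start, and 32.0% of all 34943 windows held it. TGTTTAC, found in 2.98% of all windows, was in another PLA2G2A window, 89 bases before that start. GC content was 53.6%, beside a median of 58.0% over all windows. A match describes the letters and is no evidence of binding.

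Of 11 further family and receptor genes, 9 were under a mean of 1 FPKM. PLA2G12B, a catalytically inactive relative, was at 54.8% of its control level in sh#7 (95% interval 47.6 to 63.1), and in sh#2 at 99.8% (88.8 to 112). PLA2G12A was at 3.05 FPKM in sh#7, 3.35 FPKM in sh#2 and 2.36 FPKM in the control. Neither was past 2-fold in any comparison. PLA2R1, the receptor of secreted phospholipases, was listed at 0 in all 3 libraries. PLA2G2E and PLA2G5, which flank PLA2G2A, were at most at 0.228 FPKM and 0.0631 FPKM.

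BPIFB2, on chromosome 20, belongs to the family of the bactericidal/permeability-increasing protein, whose members share a lipid-binding fold; its own activity against microbes is less well known. It was at 2.08 FPKM in sh#7, 24.5 FPKM in sh#2 and 98.5 FPKM in the control. Of the 6 genes it lay furthest below the control in sh#7, at 2.11% of the control level (95% interval 1.80 to 2.47). In sh#2 it was at 24.9% (23.7 to 26.1). The differences from the control were -5.01 in sh#7 and -1.96 in sh#2, and the difference between sh#7 and sh#2 was -3.05. Among the compared genes, 3 were further below the control in sh#7. About 165 estimated fragments lay behind the value in sh#7, against 7841 in the control.

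The promoter window of BPIFB2 covers chr20:33007454-33007703 on the plus strand, with capitals as above.

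BPIFB2: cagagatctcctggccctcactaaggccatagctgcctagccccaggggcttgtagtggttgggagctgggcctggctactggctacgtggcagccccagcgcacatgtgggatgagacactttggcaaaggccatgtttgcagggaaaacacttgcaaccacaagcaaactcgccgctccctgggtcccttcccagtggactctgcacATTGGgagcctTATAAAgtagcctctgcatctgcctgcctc

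TATAAA stood 30 bases before the start and CCAAT on the opposite strand 41 bases before it. TATAAA was in 10.8% of all windows. GC content was 58.4%.

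The rest of the BPI family was near 0 except for 1 gene. BPI itself and 5 others of the 12 further members were listed at 0 in all libraries, and 11 of the 12 were under a mean of 1 FPKM. The exception was PLTP, which moves phospholipids between lipoproteins, at 29.9 FPKM in sh#7, 26.4 FPKM in sh#2 and 34.2 FPKM in the control. The neighbours SUN5 and BPIFB6 were at 0 and at most 0.0542 FPKM.

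**Figure D2:**
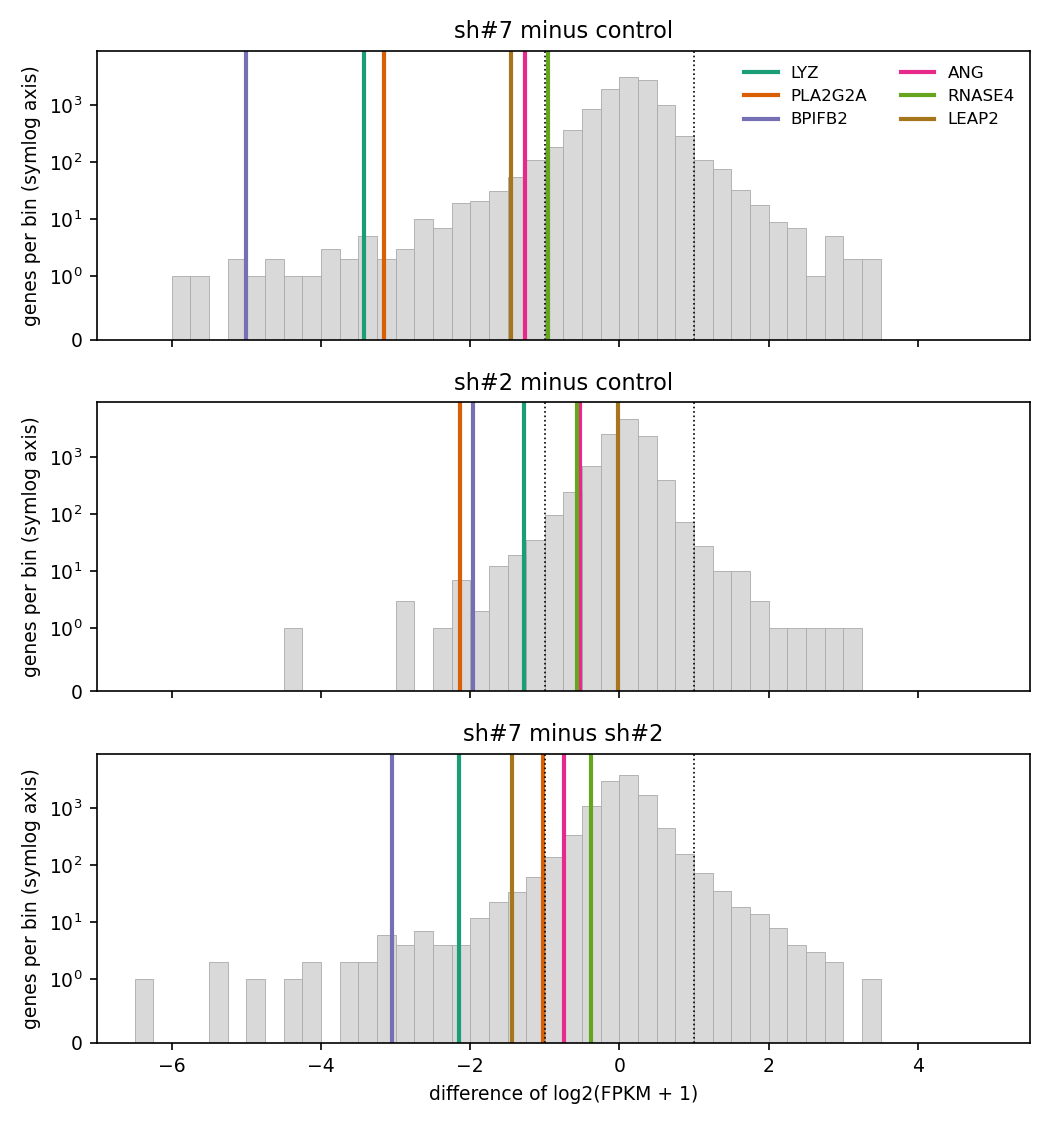
Differences of log2(FPKM + 1) for all 11069 compared genes (grey bars, genes per bin of 0.25, symlog axis starting at 0) with the 6 genes as coloured lines and dotted lines at 2-fold. BPIFB2, LYZ and PLA2G2A lie in the lower tail of all 3 panels, and LEAP2 lies at -0.02 in sh#2 against control and at -1.46 in sh#7 against control.

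ANG and RNASE4 lie on chromosome 14 as an overlapping pair. ANG encodes angiogenin, a ribonuclease that promotes vessel growth, cleaves tRNA under stress and kills some microbes in vitro. RNASE4 encodes a secreted ribonuclease that cuts after uridine. ANG was at 78.7 FPKM in sh#7, 132 FPKM in sh#2 and 191 FPKM in the control. RNASE4 was at 67.0 FPKM in sh#7, 87.8 FPKM in sh#2 and 131 FPKM in the control. Both genes were graded in the same order across the 3 libraries, over a narrower range than the other members that differed in both lines.

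Relative to the control, ANG was at 41.1% in sh#7 (95% interval 39.2 to 43.1) and at 69.1% in sh#2 (66.4 to 71.9). RNASE4 was at 51.1% in sh#7 (48.6 to 53.7) and at 66.9% in sh#2 (64.0 to 70.0). The log2 difference in sh#7 was -1.27 for ANG, past the 2-fold line, and -0.96 for RNASE4, just short of it. Relative to the median of all compared genes these values were -1.43 and -1.12, and after median-of-ratios or upper-quartile scaling RNASE4 was past 2-fold as well. In sh#2 the differences were -0.53 for ANG and -0.57 for RNASE4. The ratio of ANG to RNASE4 was 1.17 in sh#7, 1.51 in sh#2 and 1.46 in the control.

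These genes share their upstream exons, as the map of their transcripts shows. In GENCODE 29, 675 exonic bases belonged to both genes, which is 47.2% of the exonic bases of ANG and 25.8% of those of RNASE4. The division of reads in the shared exons was not stated, so the split between the genes is uncertain. An antisense gene, AL163636.1, spans the last exons of both on the opposite strand. The values of both genes summed to 146 FPKM in sh#7, 220 FPKM in sh#2 and 322 FPKM in the control. That sum was 45.2% of the control in sh#7 and 68.2% in sh#2.

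**Figure D3:**
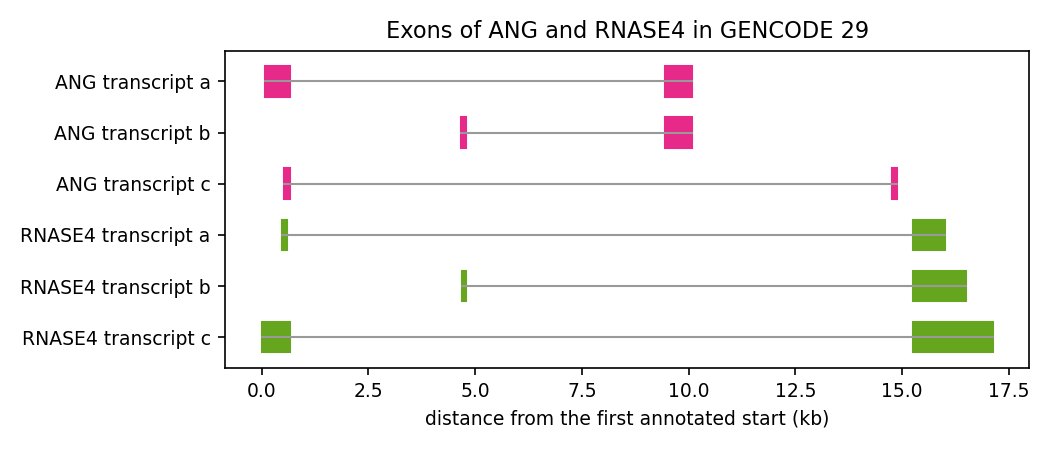
Exons (boxes) and introns (lines) of the 3 ANG and 3 RNASE4 transcripts in GENCODE 29, drawn to scale as distance in kb from the first annotated start of either gene. The leftmost exons of both genes overlap, while the last exons of RNASE4 lie downstream of those of ANG.

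The promoter window shown for ANG and RNASE4 is 1 of 2 that the genes have in common letter for letter. RefSeq places a start of both genes at each of the 2, and only 1 is printed. The printed window covers chr14:20688514-20688763 on the plus strand, with capitals as above.

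ANG and RNASE4: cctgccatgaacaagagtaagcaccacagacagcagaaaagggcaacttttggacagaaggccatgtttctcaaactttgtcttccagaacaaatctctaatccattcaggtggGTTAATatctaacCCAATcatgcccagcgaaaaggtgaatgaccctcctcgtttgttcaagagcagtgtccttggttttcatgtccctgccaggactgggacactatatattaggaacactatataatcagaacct

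GTTAAT stood 136 bases before the start and CCAAT 123 bases before it. GTTAAT was in 6.24% of all windows. The other common window, with 71.2% GC, held the GC box GGGCGG at 2 places, as did 42.5% of all windows at 1 place or more. TATAAA was in neither of the common windows.

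The rest of the RNase A family was near 0. Of 14 further genes in the list, which includes the inhibitor, 9 were listed at 0 in all libraries and 13 were under a mean of 1 FPKM. RNH1, the cytosolic inhibitor that binds and blocks these ribonucleases, was at 55.2 FPKM in sh#7, 52.2 FPKM in sh#2 and 41.2 FPKM in the control. Its log2 difference from the control was 0.41 in sh#7 and 0.34 in sh#2, short of 2-fold. OR6S1 and EDDM3A, which flank the pair, were at most at 0.0276 FPKM and 0 FPKM.

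LEAP2, on chromosome 5, encodes a cysteine-rich peptide first purified for its activity against microbes and later described as an antagonist of the ghrelin receptor GHSR. It was at 4.0 FPKM in sh#7, 12.6 FPKM in sh#2 and 12.7 FPKM in the control. Only sh#7 was low, and sh#2 and the control were almost level. The level in sh#7 was 31.4% of the control (95% interval 23.9 to 40.7), and in sh#2 it was 98.8% (82.5 to 119). The log2 difference was -1.46 in sh#7 and -0.02 in sh#2 against control, and -1.44 in sh#7 against sh#2. The value in sh#7 rests on about 76 estimated fragments, the fewest behind any value of the 6 genes. Between sh#2 and the control a difference was not detectable at this depth.

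The promoter window of LEAP2 covers chr5:132873418-132873667 on the plus strand, with capitals as above.

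LEAP2: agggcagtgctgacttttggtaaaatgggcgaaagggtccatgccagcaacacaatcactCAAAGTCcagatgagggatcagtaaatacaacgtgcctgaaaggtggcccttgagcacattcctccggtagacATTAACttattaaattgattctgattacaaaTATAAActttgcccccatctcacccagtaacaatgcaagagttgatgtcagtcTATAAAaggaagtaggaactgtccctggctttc

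TATAAA stood 33 and 86 bases before the start, CAAAGTC 190 bases before it and GTTAAT on the opposite strand 117 bases before it. CAAAGTC was in 2.91% of all windows. GC content was 43.6%. No motif was in all 4 windows printed.

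GHSR was listed at 0 in all 3 libraries. Neither neighbour of LEAP2 was past 2-fold. UQCRQ, a respiratory chain subunit, was at 55.2 FPKM in sh#7, 49.9 FPKM in sh#2 and 39.5 FPKM in the control. AFF4, a scaffold of transcription elongation, was at 8.51, 6.96 and 6.73 FPKM, and its counting intervals against the control included no difference in either line.

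A wider list held 88 other genes for secreted antimicrobial proteins and for family relatives of such proteins, PLA2G12A and PLA2G12B among them. Most were near 0, since 50 were listed at 0 in all libraries and 82 were under a mean of 1 FPKM, with 1.21 FPKM as the highest value among those. The 6 that were compared were HAMP, CCL20, LCN2, MBL2, PLA2G12A and PLA2G12B. In sh#7 against control 3 of these 6 were lower and 1 was higher by 2-fold, beside 2.48% and 2.35% of all compared genes. In sh#2 against control none was lower or higher, beside 0.723% and 0.506%. In sh#7 against sh#2, 2 were lower and none was higher, beside 1.52% and 1.45%. Their median difference was -0.91 in sh#7 and -0.13 in sh#2 against control, and -0.73 in sh#7 against sh#2, beside 0.16, 0.10 and 0.05 for all compared genes.

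CCL20, a chemokine that attracts cells bearing CCR6 and kills bacteria in vitro, was at 46.4 FPKM in sh#7, 405 FPKM in sh#2 and 570 FPKM in the control. MBL2, the mannose-binding lectin that starts the lectin pathway of complement, was at 0.703 FPKM in sh#7, 4.03 FPKM in sh#2 and 4.99 FPKM in the control. LCN2, which withholds iron by binding bacterial siderophores, was at 7.17, 12.1 and 15.8 FPKM. All 3 were lowest in sh#7 and stood closer to the control in sh#2.

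HAMP ran the other way. It encodes hepcidin, the liver peptide that lowers plasma iron by binding the exporter ferroportin, and was at 257 FPKM in sh#7, 171 FPKM in sh#2 and 102 FPKM in the control. Relative to the control this was 253% in sh#7 (95% interval 241 to 265), while sh#2 was at 169% (160 to 177). The ratio of HAMP to LEAP2, both peptides of the liver, was 64.3 in sh#7, 13.6 in sh#2 and 7.98 in the control. SLC40A1, the gene of ferroportin, was at 19.8, 23.4 and 18.4 FPKM in sh#7, sh#2 and control.

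**Figure D4:**
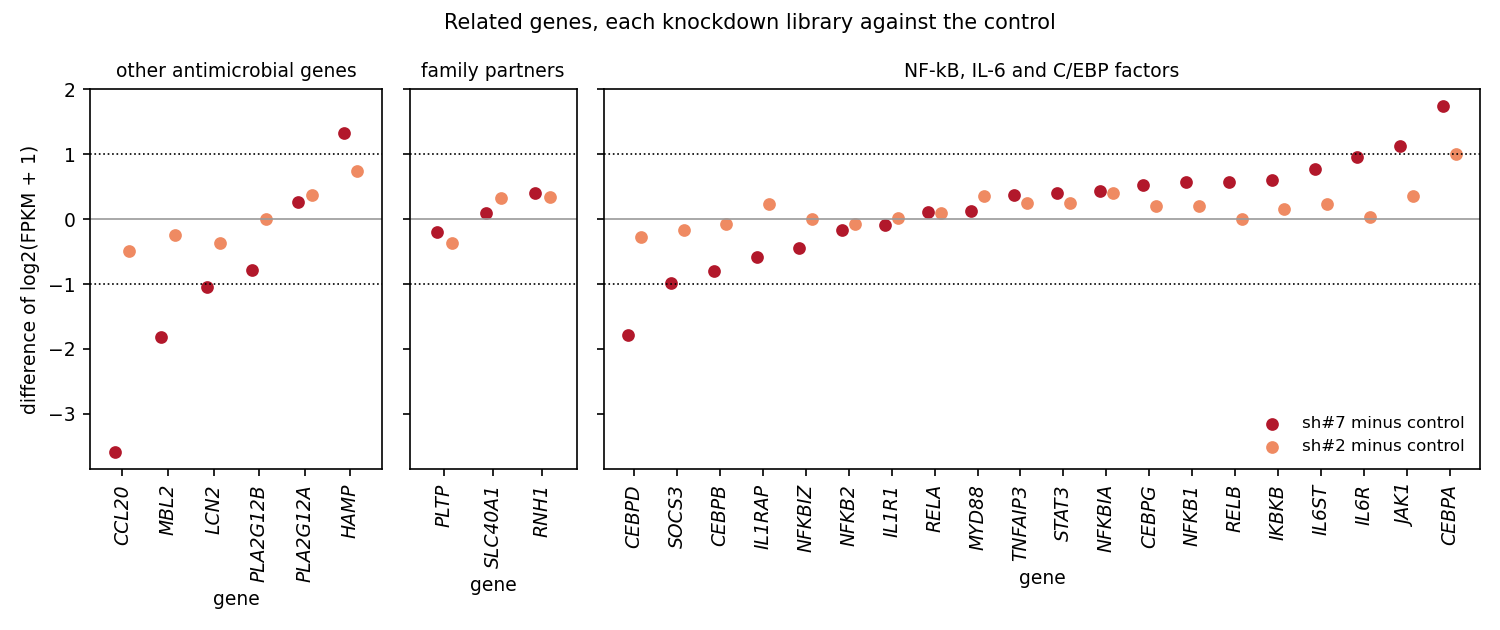
Differences of log2(FPKM + 1) from the control for compared related genes, sh#7 left of sh#2 for each gene, ordered by the sh#7 value, with dotted lines at 2-fold. CCL20 lies at -3.59 and HAMP at 1.33 in sh#7; among the signalling factors CEBPD lies at -1.78 and CEBPA at 1.74.

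Several of these genes are known targets of NF-kB, of IL-6 acting through STAT3, and of C/EBP factors, so 23 genes of those routes were read as well, of which 20 were compared. In sh#7 against control 2 were higher and 1 was lower by 2-fold, beside 2.35% and 2.48% of all compared genes. In sh#2 against control none was higher or lower, beside 0.506% and 0.723%. In sh#7 against sh#2, 1 was lower (CEBPD, at -1.49) and none was higher, beside 1.52% and 1.45%. The median difference from the control was 0.39 in sh#7 and 0.18 in sh#2, beside 0.16 and 0.10 for all compared genes. CEBPA, a factor of mature hepatocytes, was at 121 FPKM in sh#7, 71.9 FPKM in sh#2 and 35.5 FPKM in the control. Its level in sh#2 was 203% of the control, yet its log2(FPKM + 1) difference, 1.00 after rounding, fell just short of 2-fold. With a pseudocount of 0.1 the CEBPA difference in sh#2 was 1.02, past 2-fold. It was 0.88 after median-of-ratios and 0.91 after upper-quartile scaling, short of 2-fold. CEBPD, a factor induced in the acute phase, was at 13.9 FPKM in sh#7, 40.8 FPKM in sh#2 and 49.9 FPKM in the control. JAK1, a kinase of the IL-6 receptor, was at 28.0, 15.9 and 12.2 FPKM. Its log2 difference in sh#7 was 1.13, and 1.01 after upper-quartile scaling, but 0.97 after median-of-ratios scaling, short of 2-fold. NFKBIA, the inhibitor that NF-kB induces, was at 151, 148 and 111 FPKM. Chosen after their values were seen, 3 more genes of the list are given. SOCS3, a feedback inhibitor of IL-6 signalling, was at 0.529 FPKM in sh#7, 1.69 FPKM in sh#2 and 2.03 FPKM in the control, and was past 2-fold in sh#7 with a pseudocount of 0.1 or after either scaling. IL6R, the IL-6 receptor, was at 20.5, 10.3 and 10.0 FPKM, and was past 2-fold in sh#7 with a pseudocount of 0.1. Its difference there was 0.80 after median-of-ratios and 0.84 after upper-quartile scaling, short of 2-fold. CEBPB, another C/EBP factor, was at 33.3, 55.4 and 58.6 FPKM.

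Of 11 hepatocyte transcription factors, 10 were compared and none was past 2-fold against the control in either line. HNF4A was at 81.3 FPKM in sh#7, 97.5 FPKM in sh#2 and 93.1 FPKM in the control, and FOXA2 at 41.0, 39.4 and 46.5 FPKM. ONECUT1 was at 1.79, 5.03 and 3.55 FPKM in sh#7, sh#2 and control, and was past 2-fold between the knockdown lines. The 8 hepatocyte markers, HNF4A among them, summed to 6207 FPKM in sh#7, 12299 FPKM in sh#2 and 13512 FPKM in the control. In sh#7, 4 of the 8 were lower than the control by 2-fold (ALB, APOA1, TTR and FGB), beside 2.48% of all compared genes. In sh#2 it was TTR alone, beside 0.723%. APOA1, the main protein of high-density lipoprotein, was at 1081 FPKM in sh#7, 2629 FPKM in sh#2 and 2616 FPKM in the control. TF, the iron carrier transferrin, was at 1926, 2379 and 3471 FPKM. The part of this shift in the levels of the antimicrobial genes was not tested. Of 9 mucosal gland and airway markers, 8 were under a mean of 1 FPKM and the 9 summed to 1.45, 2.15 and 3.66 FPKM in sh#7, sh#2 and control. The compared one was ZG16B, a secreted lectin-like protein, at 0.967, 1.08 and 2.51 FPKM.

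The genes most like each member were sought among 8164 genes whose mean reached 5 FPKM, by the distance between pairs of log2 differences (sh#7 and sh#2, each against control). Likeness over 3 libraries is a description of these values. LYZ was nearest to FST at a distance of 0.133, followed by TTR and IGSF1. FST, which encodes the activin-binding protein follistatin, was at 3.44 FPKM in sh#7, 16.6 FPKM in sh#2 and 42.9 FPKM in the control. PLA2G2A was nearest to CP, the ceruloplasmin gene (0.337), then C10orf10 and APOM. BPIFB2 had no close match, with FABP1 at 0.625, AFP at 0.873 and IGFBP1 at 1.09.

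ANG was nearest to LDHA, a lactate dehydrogenase subunit, at a distance of 0.0289, followed by ACSL4 and SH3YL1. LDHA was at 41.9% of the control in sh#7 and at 70.3% in sh#2. RNASE4 was nearest to MOGAT3 (0.0150), C6orf145 and ESPN. LEAP2 was nearest to ALB, the albumin gene, at a distance of 0.0402, followed by CHPT1 and CDK2AP1. For ALB the log2 difference from the control was -1.49 (sh#7) and 0.01 (sh#2).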

How the data were processed

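The authors deposited a table with 1 value per gene and library. Its header names no unit, and the deposited values were taken as FPKM, made by the authors before deposit, from their range and from Cufflinks in the processing notes, on which the fragment estimates and intervals rest. STAR 2.4.0j, Cufflinks 2.2.1, HTSeq and build hg19 stand in the submitters' processing notes, without their roles; use of strand was not given in the sources used here. FPKM is a share of a total, so abundant genes shift the rest. Of all FPKM, the top 100 genes took 29.0% in sh#7, 31.3% in sh#2 and 34.7% in the control.

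FPKM values are not counts, and each group held 1 library, so no test was run. Differences were taken as log2(FPKM + 1), which understates changes of low genes, among genes whose mean reached 1 FPKM. A gene was called higher or lower past 2-fold on that scale. Fragments were estimated from the single-fragment level, sought in a fixed window among low genes with 1 GENCODE 29 transcript over 800 nt. The same window served all libraries and bounds the depth it can return. Per gene the shortest transcript of at least 400 nt was used, which gives wide rather than narrow intervals. Intervals are exact conditional (Clopper-Pearson) 95% intervals of a ratio. The calculations were tested on simulated data. Gene order and promoters came from RefSeq on GRCh38.p14 and exons from GENCODE 29, newer than the authors' build, so they serve for names, neighbours and sequence only.

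The members and gene lists were chosen with earlier results of these data known. Named were FTO, the 6 members, list genes past 2-fold in a comparison or among the 2 highest of their list, the 3 nearest genes of each member and its protein-coding neighbours; other compared family genes are given for completeness. Alternatives were a pseudocount of 0.1, no filter, a minimum mean of 5 FPKM, median-of-ratios and upper-quartile scaling, and 1.5-fold. Python 3.11.15, pandas 2.3.3, numpy 2.4.6 and scipy 1.17.1 were used.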

Additional observations from a re-analysis of the deposited data

Results flagged for a closer look

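Among the genes named, 4 had the knockdown lines on opposite sides of the control by more than counting error, a difference that was not tested. On the log2(FPKM + 1) scale the difference of ONECUT1, a hepatocyte factor, was -0.71 in sh#7 against control, while sh#2 against control gave 0.41. FGB, the fibrinogen beta chain among the hepatocyte markers, had -4.16 and 0.27. CDK2AP1, the third nearest gene to LEAP2, had -1.48 and 0.12. APOB, the apolipoprotein B gene, had -0.30 and 0.07. The median of all compared genes in sh#2 was 0.10, so CDK2AP1 was barely above it and APOB was below it. None of the 6 antimicrobial genes behaved so.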

How the results depend on the processing

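No paired analysis was possible because the groups have 1 library apiece, which also means that no replicate could be left out. Of the 6 alternatives, the pseudocount of 0.1 and both scalings can move a difference, and a scaling shifts all genes nearly alike; under these the differences of the 6 genes kept their sign. BPIFB2 in sh#7 against control ranged from -5.50 to -5.01, LYZ from -3.61 to -3.43 and PLA2G2A from -3.34 to -3.16. Counts of members past 2-fold stayed within 1.5 times. Higher genes made up 48.6% of all called genes in sh#7 against control, 34.1% after median-of-ratios and 38.5% after upper-quartile scaling; in sh#2 against control the shares were 41.2%, 30.7% and 32.9%.

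Counts over all genes moved most. A pseudocount of 0.1 gave 394 higher in sh#7 against control, 106 higher and 138 lower in sh#2 against control, and 252 higher in sh#7 against sh#2. A minimum mean of 5 FPKM gave 146, 24, 49 and 82 for the same counts. At 1.5-fold there were 1064 higher and 684 lower in sh#7 against control, 295 and 301 in sh#2 against control, and 569 and 504 in sh#7 against sh#2. In the wider list, 1.5-fold gave 1 higher in sh#2 against control and 4 lower in sh#7 against sh#2, and a minimum mean of 5 FPKM gave 1 lower there. Without a filter its median was 0.00 in sh#7 against control and 0.00 in sh#7 against sh#2, since most of its genes are at 0. Depth limits LEAP2 most among the members.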
